A study of Homo sapiens with 8 samples.

Results

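The mitochondrial ribosomal protein genes are the nuclear genes whose symbols begin with MRPL or MRPS, for the proteins of the large and the small subunit of the ribosome inside mitochondria. They were taken as every row of the deposited expression table whose symbol is MRPL or MRPS followed by a number, with A, B or C after it where the symbol has one. This gave 83 rows with 78 different symbols, of 20323 genes in the table. A filter on low counts kept 78 rows, one for each symbol, among the 12648 genes tested.

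Messenger RNA was measured in H2452, an established human cell line from a biphasic pleural mesothelioma, labelled wild type. One group was kept for 48 h with 20 nM DPT (deoxypodophyllotoxin, a plant lignan that blocks the assembly of microtubules), and the other for 48 h with DMSO, the solvent. There were 4 libraries a group, given in the series design as separate biological replicates. The comparison asks which genes differed between the treated and the solvent cells.

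Mitochondria keep a ribosome of their own, which resembles that of bacteria and makes a small set of membrane proteins of the respiratory chain and ATP synthase. Its ribosomal RNAs are transcribed from mitochondrial DNA, while all of its proteins are encoded in the nucleus, made in the cytosol and imported. Some of these proteins have a counterpart in the bacterial ribosome, and others were added in mitochondria. Many nuclear genes of mitochondrial function carry binding sites for NRF1 and for the ETS factor GABP near their start, and both factors are known regulators of this group.

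Library totals were 14964432 to 17205391 counts. DMSO library 3 and DPT library 2 stood apart from the other 6: the mean log2 CPM (counts scaled to library size) of a list of interferon response genes was 7.0 and 6.45 in this pair and 9.0 to 9.20 in the others, and that of a list of mitosis genes was 7.39 and 7.49 against 6.62 to 6.82. Results are therefore given for all 8 libraries, with a term in the model for this pair, and for the 6 other libraries. Of 10 mesothelioma markers, all passed the low-count filter and 6 were above 10 CPM, with summed levels of 2879 to 4020 CPM in DMSO and 1865 to 2831 CPM in DPT; most of this was KRT8 and KRT18, while LRRN4 stayed under 1 CPM and KRT5 and UPK3B were low. Leukocyte markers summed to 91.5 to 130.5 CPM in DMSO and 94.4 to 145.7 CPM in DPT, almost all from CD68 and CD14, with TYROBP at 0, and endothelial markers summed to 6.13 to 9.95 and 8.09 to 16.5 CPM with EMCN at 0.

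Short promoter stretches are shown here because they carry the 2 motifs for which this gene group is known. Promoters of 250 bases before to 50 after the start, from RefSeq on GRCh38.p14, matched 69 of the 78 symbols. The ETS core, CCGGAAG or its reverse complement CTTCCGG, stood in 30 of the 69 (43.5%), against 2323 of 10158 tested genes with a promoter in the table (22.9%). The NRF1 core, GCGCATG or CATGCGC, stood in 7 of the 69 (10.1%), against 892 of 10158 (8.78%). These are matches of letters and not shown binding sites. Each stretch below has 29 bases, written 5′ to 3′ on the strand of the gene, with the motif in capitals. Of the 5 members called higher in DPT, MRPL52 held both motifs, the windows of MRPL4 and MRPS35 held neither, and MRPL10 and MRPL15 were not among the 69. The other genes shown were chosen after their values were seen: MRPL3 had the highest level, MRPL38 and MRPL17 were higher with the term for the pair, and MRPS16 was lower with it.
MRPL52, ETS core, chr14:22829871-22829899, plus strand: ggccacgcctaCTTCCGGctaccccggct
MRPL52, NRF1 core, chr14:22829702-22829730, plus strand: cactgagaatgCATGCGCtgaacgacaat
MRPL3, ETS core, chr3:131502986-131503014, minus strand: tgtaaaacgcaCCGGAAGtgggtccggcg
MRPL38, ETS core, chr17:75905075-75905103, minus strand: tccaacgggcaCTTCCGGagccgggcgtc
MRPL17, NRF1 core, chr11:6683366-6683394, minus strand: tccgagctaagGCGCATGcgttccctgaa
MRPS16, ETS core, chr10:73252622-73252650, minus strand: cggatcatccgCTTCCGGagtcgaggttt

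In position, the 81 rows found in GENCODE 29 lay on 21 chromosomes. For 17 of the 77 tested members with a position (22.1%) a protein-coding gene on the other strand started within the 1000 bases upstream. This was so for 1223 of 12575 tested protein-coding genes (9.73%). Starts on the other strand that lay inside the gene were not counted, and the tested MRPS5 row has no position. MRPL46 and MRPS11, proteins of the large and the small subunit, start 34 bases apart on chromosome 15. MRPL10 starts 93 bases from LRRC46, and MRPL52 starts 59 bases from SLC7A7. Exons of 29 of the 77 (37.7%) overlap an exon on the opposite strand, and those of 15 (19.5%) overlap one of another gene on the same strand. No source used here states a strand setting for the counting, and reads of such genes then cannot be told apart; MRPL4, MRPS12, MRPS14 and MRPS16 are among those with an overlap on the opposite strand.

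Levels were compared between genes as FPKM, which is scaled by gene length. The median of the 78 members' mean levels over 8 libraries was 31.2 FPKM, and 74 of the 78 were above the median of all tested genes, 10.7 FPKM. From the highest to the lowest member the levels spanned 27.4-fold. MRPL3, whose bacterial counterpart lies near the peptidyl transferase centre, was highest, at 101.1 ± 7.81 FPKM in DMSO and 118.3 ± 11.9 in DPT (SD, n = 4 in each). Next came MRPL51 at 88.8 ± 14.4 and 89.1 ± 15.9 FPKM, and MRPL37 at 75.2 ± 11.7 and 79.9 ± 11.3 FPKM, both large-subunit proteins without a bacterial counterpart. MRPL51 was above MRPL37 in every library. Their levels were closest in DPT library 1, at 75.4 and 74.1 FPKM, and furthest apart in DMSO library 2, at 96.0 and 66.6 FPKM. At the low end, mean levels over 8 libraries were 8.86 FPKM for MRPS21, 5.98 for MRPS17 and 4.00 for MRPL50.

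**Figure D1:**
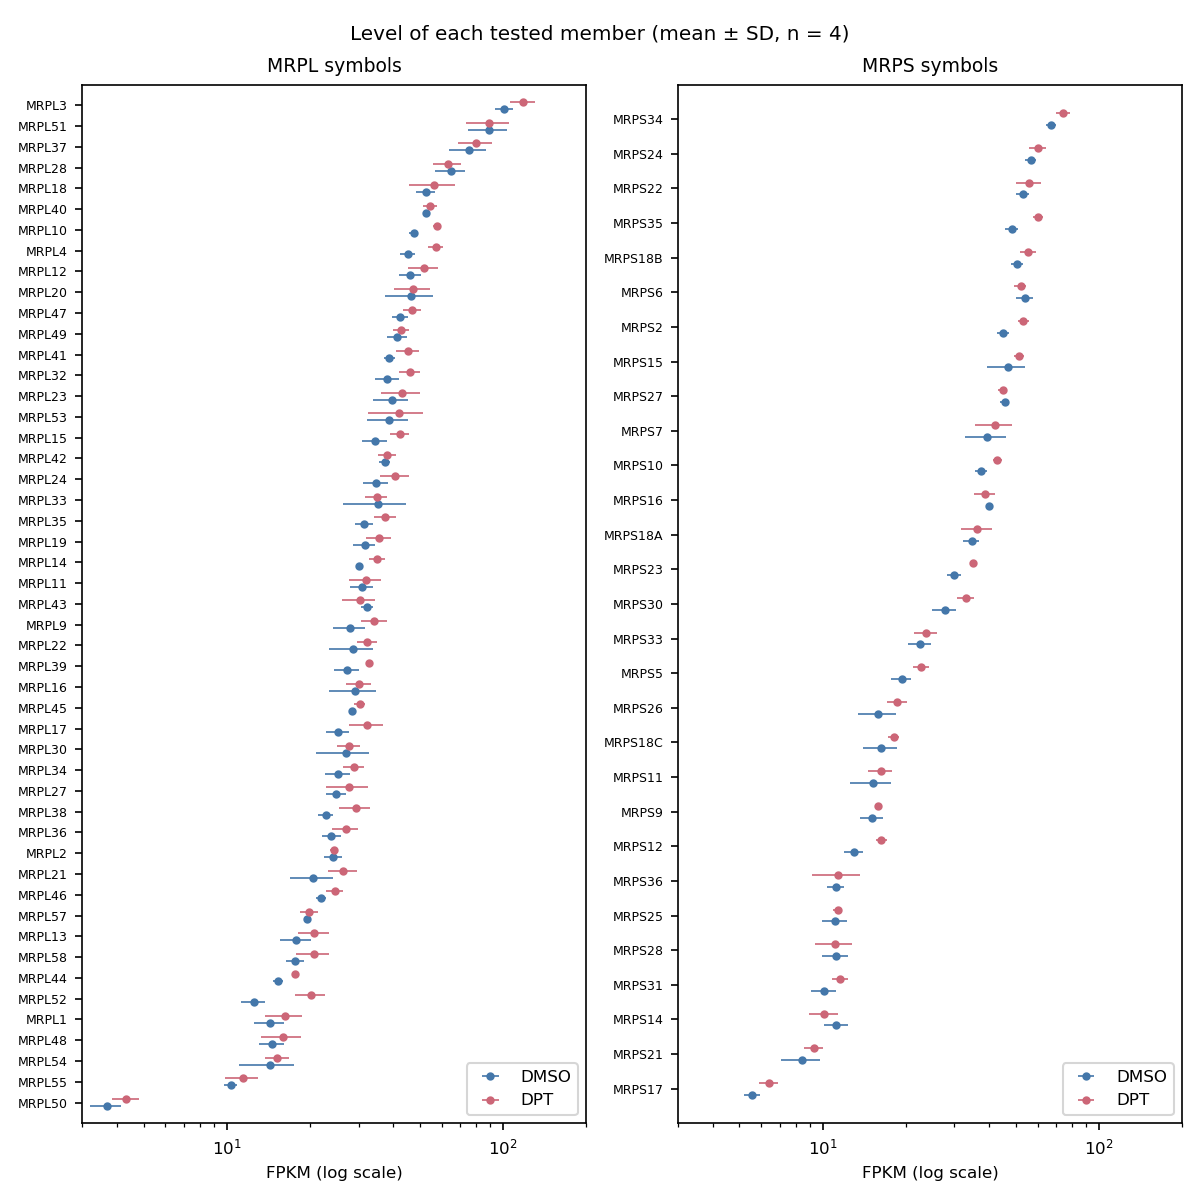
Mean level of each of the 78 tested members in FPKM on a log axis, DMSO in blue and DPT in red, with bars of ± 1 SD over 4 libraries; genes are ordered by level within each symbol group. The order runs from MRPL3, with means of 101.1 and 118.3 FPKM, down to MRPL50, with a mean of 4.00 FPKM over 8 libraries.

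The 5 remaining rows did not pass the low-count filter, and each repeats a symbol that has another, tested row. A second row for MRPL2 had 0 counts in every library, which allows up to 0.203 CPM in the shallowest one. Of 3 further MRPL30 and MRPS17 rows, MRPL30 had mean counts of 10.0 and 2.75 in 2 readthrough transcripts and MRPS17 had 5.48 in one that joins ZNF713. The MRPS5 row with the older identifier had a mean of 4.74 counts. The other MRPS5 row, whose identifier is absent from GENCODE 29, carried a mean of 1120 counts and is the one tested.

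In the 8 libraries, 5 of the 78 members were higher in DPT (6.41%) and 0 were lower, by edgeR's quasi-likelihood test at an adjusted p under 0.05. Among all tested genes 5.68% were higher and 5.29% lower, so the share of members called higher was near that of the whole table. At an unadjusted p under 0.05, 19 members were higher (24.4%) and 2 lower (2.56%), against 13.5% and 13% of all tested genes, and DESeq2 called 7 higher and 0 lower (8.03% and 7.81% of all genes). The log2 fold change was above 0 for 61 of 78 members (78.2%), against 49.8% of all tested genes, and its median was 0.09 against -0.0018. Single changes were small: they ranged from -0.23 for MRPS14 to 0.46 for MRPL52, and the 95% intervals of all 78 lay within 1 log2 unit of 0. Of these intervals 74 lay within 0.5 log2 units, the exceptions being MRPL15, MRPL21, MRPL38 and MRPL52. In 4 against 4 simulated libraries, with changed genes drawn from the whole table, the test found 34.3% of those changed by 0.5 log2 units. The simulation held no pair of libraries that stood apart, and the share for genes at the members' levels and spread was not simulated. The smallest change called among the members was 0.24, for MRPL10.

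**Figure D2:**
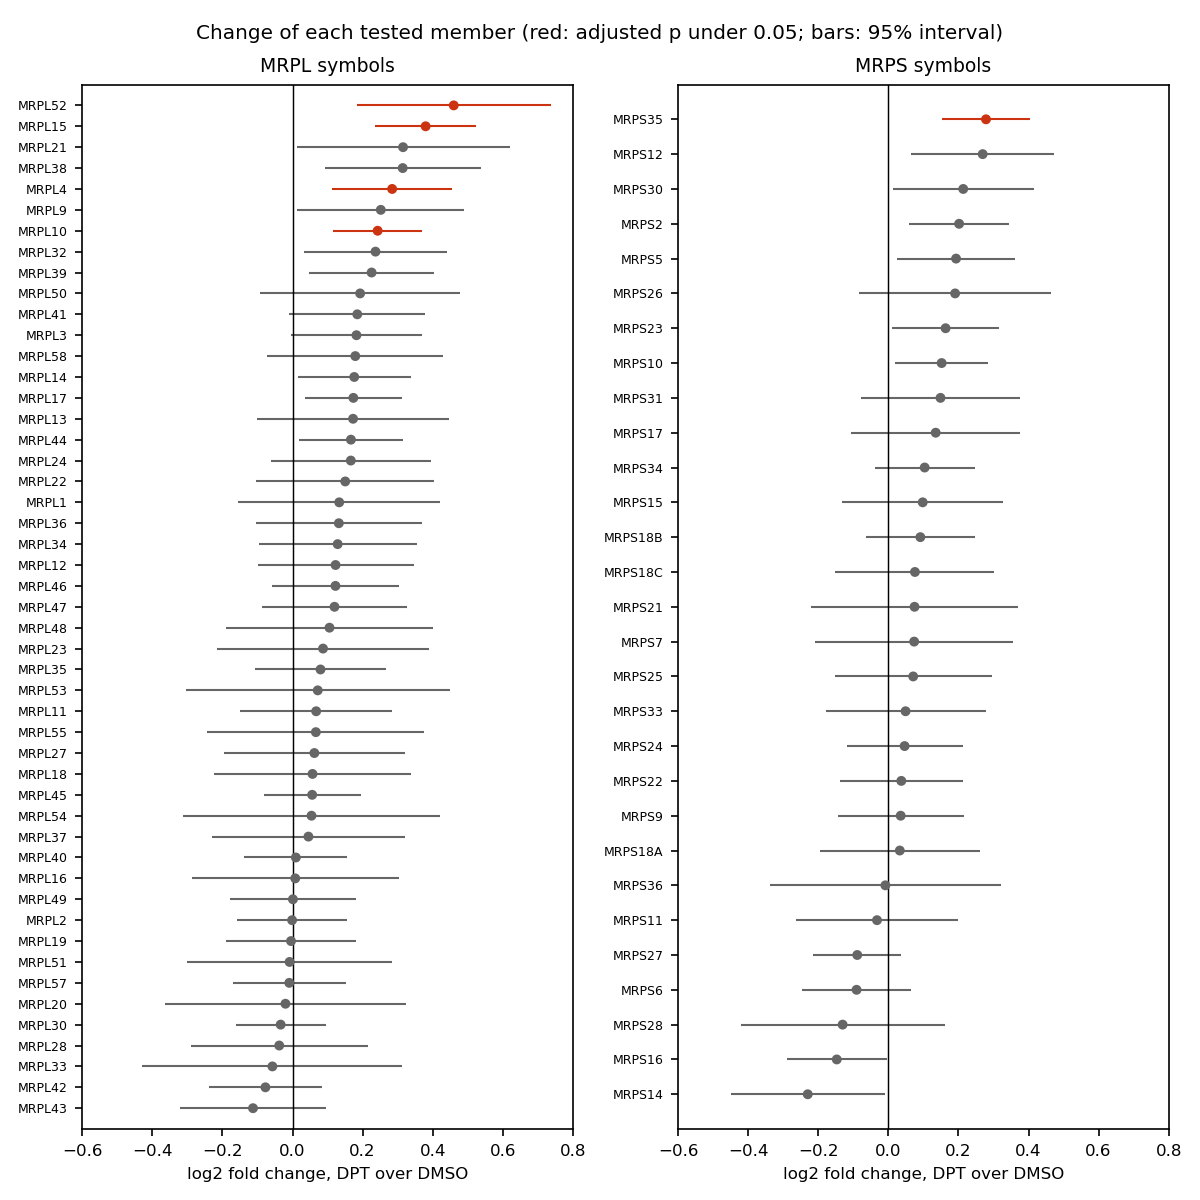
Log2 fold change of DPT over DMSO for each of the 78 tested members, with 95% intervals; red marks an adjusted p under 0.05. The 5 members in red are MRPL52, MRPL15, MRPL4, MRPL10 and MRPS35, and most other points lie right of 0 with intervals that reach across or close to it.

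MRPL15, a large-subunit protein with a bacterial counterpart (chromosome 8, 54135210 to 54147901, GRCh38), had the smallest adjusted p. Its DMSO libraries 1 to 4 measured 34.1, 36.2, 34.5 and 32.1 CPM and its DPT libraries 44.2, 43.1, 46.5 and 44.5 CPM. Every DPT library was above every DMSO library, and DPT library 2 was the lowest of its group. The log2 fold change was 0.38 (SE 0.0645, adjusted p = 0.00703, edgeR), and the call held in each of the 8 fits that left out 1 library. On the FPKM values, limma gave an adjusted p of 0.0727.

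MRPS35, a small-subunit protein found in mitochondria without a bacterial counterpart (chromosome 12, 27710773 to 27756295), measured 85.1, 86.9, 92.3 and 86.9 CPM in DMSO and 104, 112, 104 and 105 CPM in DPT. The groups did not overlap, with DMSO library 3 and DPT library 2 highest in their groups. Its log2 fold change was 0.28 (SE 0.0565, adjusted p = 0.0145, edgeR). Without DMSO library 1, 2 or 4 the adjusted p was 0.0541 to 0.0591.

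MRPL10, which anchors the stalk of the large subunit (chromosome 17, 47823272 to 47831534), measured 80.0, 84.4, 82.0 and 87.7 CPM in DMSO and 97.5, 99.9, 103 and 95.5 CPM in DPT. The groups were separate, and DPT over DMSO was 0.24 on the log2 scale (SE 0.0567, edgeR's adjusted p = 0.0254). Leaving out DMSO library 1, 2 or 4 or DPT library 1, 3 or 4 gave an adjusted p of 0.053 to 0.0922. The other stalk proteins did not pass the test. MRPL12, the stalk protein itself, measured 42.5, 47.0, 52.3 and 47.6 CPM in DMSO and 46.9, 61.0, 50.4 and 48.0 in DPT, a log2 fold change of 0.12 (adjusted p = 0.481), and MRPL11, at the base of the stalk, showed a log2 fold change of 0.067 (adjusted p = 0.717). In both genes the groups overlapped and DPT library 2 was highest; without it the log2 fold changes were 0.031 and -0.022.

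MRPL4, a large-subunit protein whose bacterial counterpart lines the exit tunnel (chromosome 19, 10251901 to 10260045), measured 54.1, 54.2, 61.7 and 55.4 CPM in DMSO and 72.1, 74.2, 65.1 and 63.3 CPM in DPT. The lowest DPT library was close above the highest DMSO library, which was library 3. Its log2 fold change was 0.28 (SE 0.076, adjusted p = 0.0418, edgeR), and without DMSO library 1, 2 or 4 or DPT library 1, 3 or 4 the adjusted p was 0.058 to 0.123. It was 0.0626 with no low-count filter. MRPL52, a large-subunit protein without a bacterial counterpart (chromosome 14, 22829879 to 22835037), was at a lower level, with 9.1, 11.3, 9.7 and 8.1 CPM in DMSO and 11.7, 14.1, 13.5 and 13.3 CPM in DPT. It had the highest log2 fold change of the members, 0.46, and the SE was 0.124 (adjusted p = 0.0427). Every fit without 1 library other than that without DMSO library 2 lost the call, with adjusted p of 0.0538 to 0.118, and it was 0.0504 with upper-quartile scaling and 0.0613 with no low-count filter.

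**Figure D3:**
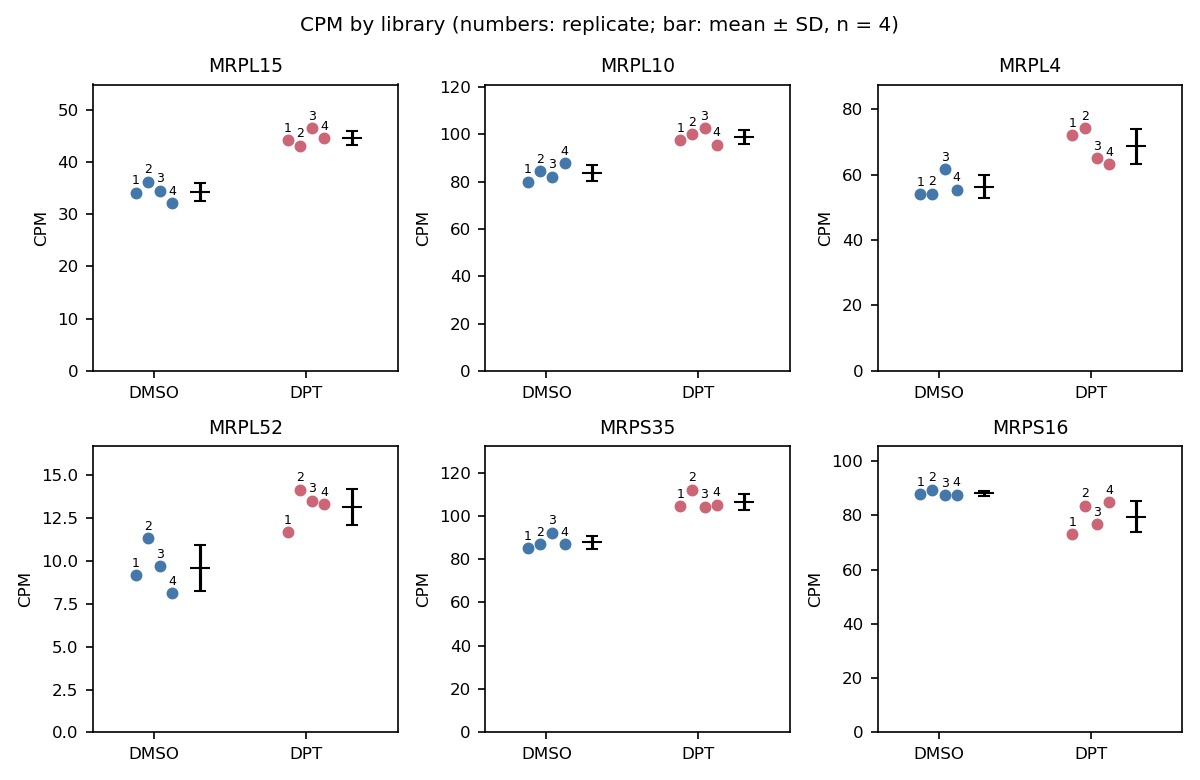
CPM of the 5 members called higher in DPT and of MRPS16 in each library; the number beside each point is the replicate and the bar is the mean ± 1 SD of 4 libraries, on axes that start at 0. For MRPL15 the DMSO libraries lie at 32.1 to 36.2 CPM and the DPT libraries at 43.1 to 46.5 CPM.

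With the term for the pair, 17 members were higher in DPT (21.8%) and 1 was lower (1.28%), while 16.9% and 17% of all tested genes were higher and lower in that fit. In the 6 libraries without the pair the counts were 15 higher (19.2%) and 1 lower (1.28%), against 17% and 17.1% of all genes. In both fits the share of members called lower was below that of the whole table and the share called higher was above it by a few percentage points, a difference that was not tested. The 12 members called higher with the term and not without it were MRPL3, MRPL9, MRPL17, MRPL21, MRPL32, MRPL38, MRPL39, MRPS2, MRPS5, MRPS10, MRPS12 and MRPS30. Their log2 fold changes with the term were 0.15 to 0.32. The member lower with it was MRPS16, whose bacterial counterpart belongs to the body of the small subunit (chromosome 10, 73248843 to 73252693): 87.7, 89.4, 87.4 and 87.5 CPM in DMSO, against 73.1, 83.5, 76.6 and 84.7 CPM in DPT. All 4 DPT libraries were below the DMSO libraries, with a log2 fold change of -0.15 (adjusted p = 0.176 in 8 libraries and 0.0405 with the term). MRPS14, another small-subunit protein with a bacterial counterpart, had the lowest log2 fold change of the members, -0.23, with groups of 18.2, 18.9, 18.5 and 16.8 against 15.3, 16.8, 13.2 and 16.4 CPM that just overlapped (adjusted p = 0.171, and 0.0617 with the term).

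Counted without a test, 14 members had every DPT library above every DMSO library (17.9%), against 9.5% of all tested genes, and 1, MRPS16, had every DPT library below (1.28%), against 8.73%.

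By symbol, 4 of 49 large-subunit members were higher (8.16%) and 0 lower, against 5.68% and 5.29% of all tested genes. The median log2 fold change of the large-subunit members was 0.12, with 39 above 0 (79.6%, against 49.8% of all tested genes). Among the 29 small-subunit members 1 was higher (3.45%) and 0 lower, with a median of 0.075 and 22 above 0 (75.9%). The 46 members with a bacterial counterpart had 3 higher (6.52%), 0 lower and a median of 0.089. The 32 found in mitochondria without one had 2 higher (6.25%), 0 lower and a median of 0.088. Without DPT library 2 the medians were 0.031 for the large-subunit members, with 29 above 0, and 0.039 for the small-subunit members, with 18 above 0, so their order turned over. Those of the members with and without a bacterial counterpart were then 0.037 and 0.043. Differences between these groups were not tested. The summed level of the large-subunit members was 1952 ± 95.5 CPM in DMSO and 2098 ± 157 in DPT, and that of the small-subunit members 1269 ± 32.0 and 1336 ± 60.1 CPM (SD, n = 4).

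Several members sit elsewhere than their symbols say. MRPS30 and MRPS18A are parts of the large subunit, MRPS36 is now assigned to the oxoglutarate dehydrogenase complex, and MRPL58 is a peptidyl-tRNA hydrolase built into the large subunit. MRPS30 measured 48.2, 47.2, 39.4 and 50.5 CPM in DMSO and 55.0, 48.4, 54.8 and 56.6 in DPT, so that both libraries of the pair were lowest in their groups. Its log2 fold change was 0.21 (adjusted p = 0.165, and 0.0063 with the term for the pair). MRPL58 showed a log2 fold change of 0.18 (adjusted p = 0.350), which was 0.081 without DPT library 2 and 0.060 in the 6 libraries without the pair, and MRPS36 one of -0.0086 (adjusted p = 0.977), which was 0.033 with scaling by library totals. The 3 related proteins MRPS18A, MRPS18B and MRPS18C occupy different places in the ribosome, and their log2 fold changes were 0.033, 0.091 and 0.076 with adjusted p of 0.879, 0.451 and 0.692. Without DPT library 2 those of MRPS18A and MRPS18B were -0.057 and 0.039. MRPS12, at the decoding centre, measured 12.8, 14.1, 13.5 and 11.8 CPM in DMSO and 15.97, 16.2, 14.6 and 16.2 CPM in DPT. Its groups were separate but close (0.27 on the log2 scale, adjusted p = 0.0907, and 0.0306 when the pair had its own term).

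Levels of the members also differed between libraries of one group. DPT library 2 had the highest level of the 8 libraries for 46 of 78 members, and in it 73 of 78 were above their own mean, with a median deviation of 0.18 log2 units. DMSO library 1 and DMSO library 4 each held the lowest level of 20 members. Median deviations of DMSO libraries 1 to 4 were -0.11, -0.011, 0.028 and -0.087, and those of DPT libraries 1 to 4 were -0.031, 0.18, -0.026 and 0.045. The groups overlapped on this measure: DPT libraries 1 and 3 were below DMSO libraries 2 and 3. Members took 0.3055%, 0.3188%, 0.3373% and 0.308% of all counts in the DMSO libraries and 0.3324%, 0.3788%, 0.3371% and 0.3442% in the DPT libraries. Here too DMSO library 3 lay above DPT libraries 1 and 3.

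Between DPT library 2 and DMSO library 3 the median log2 difference of the members was 0.18, with 62 of 78 above 0, and among the other 6 libraries it was 0.076, with 53 above 0. Both differences were above 0 for 45 members and below 0 for 8. The pair itself had a median level 0.14 log2 units above the other libraries, with 66 of 78 members higher. Without DPT library 2 the log2 fold change of DPT over DMSO was above 0 for 48 of 79 members and its median fell to 0.039, with 4 members called higher (5.06%), against 9.26% of all genes in that fit. The part of the interferon and mitosis gene levels that move with this pair was not tested.

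**Figure D4:**
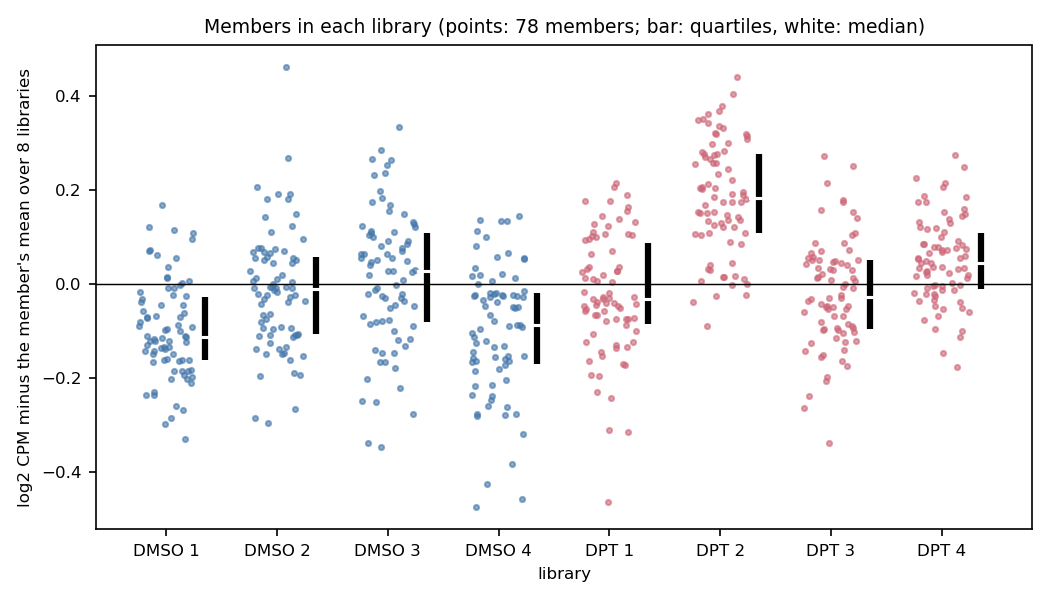
Deviation of each of the 78 tested members from its own mean over 8 libraries, in log2 CPM, with 1 point per member and library; black bars span the quartiles and the white gap is the median. DPT library 2 lies highest, with a median of 0.18, and the medians of the other 7 libraries lie between -0.11 and 0.045.

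The 5 subunits with other symbols were also measured, and none passed the test in 8 libraries. CHCHD1, a small-subunit protein, measured 11.1, 12.1, 12.4 and 12.1 CPM in DMSO and 14.9, 16.2, 13.3 and 15.4 CPM in DPT. The groups were separate, with a log2 fold change of 0.33 (adjusted p = 0.0565, and 0.012 with the term for the pair), and DESeq2 called it higher. PTCD3, a small-subunit protein with RNA-binding repeats, measured 94.8, 94.01, 78.4 and 95.5 CPM in DMSO and 70.9, 82.4, 75.8 and 77.8 CPM in DPT. DMSO library 3 lay inside the DPT range, and the log2 fold change was -0.24 (adjusted p = 0.0885, 0.0096 with the term, and under 0.05 also without DMSO library 3 or without DPT library 2, where it was -0.31 and -0.28). DAP3, a GTP-binding small-subunit protein, AURKAIP1 and GADD45GIP1 had log2 fold changes of 0.13, 0.11 and 0.17 with adjusted p of 0.216, 0.631 and 0.234.

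Other genes that serve the mitochondrial ribosome were read from lists of 151 tested genes, these subunits included. In these lists 9 genes were higher (5.96%) and 3 lower (1.99%), against 5.68% and 5.29% of all tested genes. Of 29 genes for assembly and rRNA modification 1 was higher (3.45%) and 0 lower, with a median of 0.083. It was MRM3, a methyltransferase of the large ribosomal RNA, with a log2 fold change of 0.32 (adjusted p = 0.0458, and 0.071 with no low-count filter). None of 21 translation factors was called, with 2 higher and 0 lower at an unadjusted p under 0.05 and 0 by DESeq2. With the term for the pair 2 were higher (9.52%, against 16.9% of all tested genes). In the 6 libraries without the pair 1 was higher and 1 lower (4.76% each, against 17% and 17.1%). The median of the translation factors was 0.0051, and -0.032 without DPT library 2. Of 17 mitochondrial aminoacyl-tRNA synthetases 1 was higher (5.88%), YARS2, for tyrosine, with a log2 fold change of 0.31 (adjusted p = 0.0251). The median of the synthetases was 0.053, and -0.011 without DPT library 2. MRM3 was called in 1 and YARS2 in 2 of the 8 fits without 1 library, with adjusted p in the others of 0.0558 to 0.13 (all but that without DPT library 2) and 0.0501 to 0.0832 (without DMSO library 1, 2 or 4 or DPT library 1, 3 or 4).

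Among 23 genes of mitochondrial DNA maintenance, transcription and RNA processing 3 were higher and 0 lower, with a median of 0.13. The share higher was 13%, against 5.68% of all tested genes, in a list chosen with earlier results of these data known. FASTKD3, which binds mitochondrial messenger RNAs, measured 17.6, 18.2, 18.2 and 18 CPM in DMSO and 22.3, 28.05, 27.7 and 24.6 CPM in DPT. Its log2 fold change was 0.51 (SE 0.0894, adjusted p = 0.00792), and it was called in all 8 fits without 1 library. SUPV3L1, the helicase of the mitochondrial RNA degrading complex, showed a log2 fold change of 0.35 (adjusted p = 0.0281), and POLG, the mitochondrial DNA polymerase, one of 0.27 (adjusted p = 0.0335, 0.0546 with no low-count filter and 0.0669 by limma on FPKM; named after its values were seen). Both lost the call without DMSO library 1, 2 or 4 or DPT library 1, 3 or 4, at 0.0609 to 0.0912 and 0.0585 to 0.0986. Of 33 import genes 1 was higher (3.03%) and 0 lower, with a median of 0.10, which was 0.033 without DPT library 2. GRPEL1, which exchanges the nucleotide of the mitochondrial Hsp70, measured 65.3, 67.5, 69.0 and 67.0 CPM in DMSO and 89.2, 83.1, 95.9 and 94.1 CPM in DPT, so that the log2 fold change was 0.43 with an SE of 0.0628 (adjusted p = 0.00381), and the call held in all 8 fits without 1 library.

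Of 10 tested nuclear regulators of mitochondrial genes 3 were higher (30%, against 5.68% of all tested genes) and 0 lower. Their median was 0.20, which was 0.33 without DPT library 2. The list was chosen with earlier results of these data known, so its share of called genes is not independent of them and was not tested. PPRC1, a coactivator related to PGC-1, showed a log2 fold change of 0.34 (adjusted p = 0.0142, and 0.0506 to 0.0513 without DMSO library 1 or 2). GABPB1, the partner of the ETS protein GABPA in GABP, had one of 0.39 (adjusted p = 0.0255, and 0.0556 to 0.0832 without DMSO library 1, 2 or 4 or DPT library 3 or 4). MYC, a transcription factor that raises ribosome production, measured 188, 191, 115 and 188 CPM in DMSO and 297, 191, 325 and 296 CPM in DPT, so that DMSO library 3 and DPT library 2 were lowest in their groups and the groups overlapped. Its log2 fold change was 0.70 (adjusted p = 0.0494, 0.0512 with upper-quartile scaling, and 0.0874 to 0.137 without DMSO library 1, 2 or 4 or DPT library 1, 3 or 4). The pair was low in MYC and high in most members, and a link between MYC and the members was not tested. The factors named for the motifs did not pass the test: NRF1 showed a log2 fold change of 0.071 (adjusted p = 0.657) and GABPA one of -0.12 (adjusted p = 0.350). TFAM, which packages mitochondrial DNA and acts in its transcription, had one of 0.14 (adjusted p = 0.249, and 0.0117 in the 6 libraries without the pair).

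The messenger RNAs of the 13 proteins encoded by mitochondrial DNA, which this ribosome translates, had log2 fold changes below 0 in every case, with a median of -0.21. Of these, 3 were lower (23.1%) and 0 higher in 8 libraries, against 5.29% and 5.68% of all tested genes. With the term for the pair 9 were lower (69.2%, against 17% of all tested genes). In the 6 libraries without the pair 10 were lower (76.9%, against 17.1%). All 13 messages come from the same mitochondrial DNA, so their calls are not those of independent genes. MT-ND5, a subunit of complex I, measured 3286, 3350, 3084 and 3183 CPM in DMSO and 2891, 2501, 2614 and 2609 CPM in DPT. The groups were separate, with a log2 fold change of -0.28 (adjusted p = 0.0206, 0.102 by limma on FPKM, and 0.0543 to 0.0727 without DMSO library 1, 2 or 4 or DPT library 3 or 4). MT-ND6, encoded on the strand opposite to the others, showed a log2 fold change of -0.33 (adjusted p = 0.0441, 0.0682 with scaling by library totals, 0.109 by limma on FPKM, and 0.0755 to 0.132 without DMSO library 1 or 2 or DPT library 1, 3 or 4). MT-CO1, a subunit of cytochrome c oxidase named after its values were seen, had one of -0.16 (adjusted p = 0.0497, 0.123 with scaling by library totals, 0.069 with no low-count filter, 0.56 by limma on FPKM, and 0.0915 to 0.152 without DMSO library 1, 2 or 4 or DPT library 1, 3 or 4). Mitochondrial transcripts made up 4.17% ± 0.176 of counts in DMSO and 3.79% ± 0.0622 in DPT (SD, n = 4). The libraries were made from RNA selected on oligo(dT), which takes transcripts by their poly(A) tails. Whether each mitochondrial transcript, MT-ND6 included, carries such a tail was not examined, and the part of this selection was not tested.

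**Figure D5:**
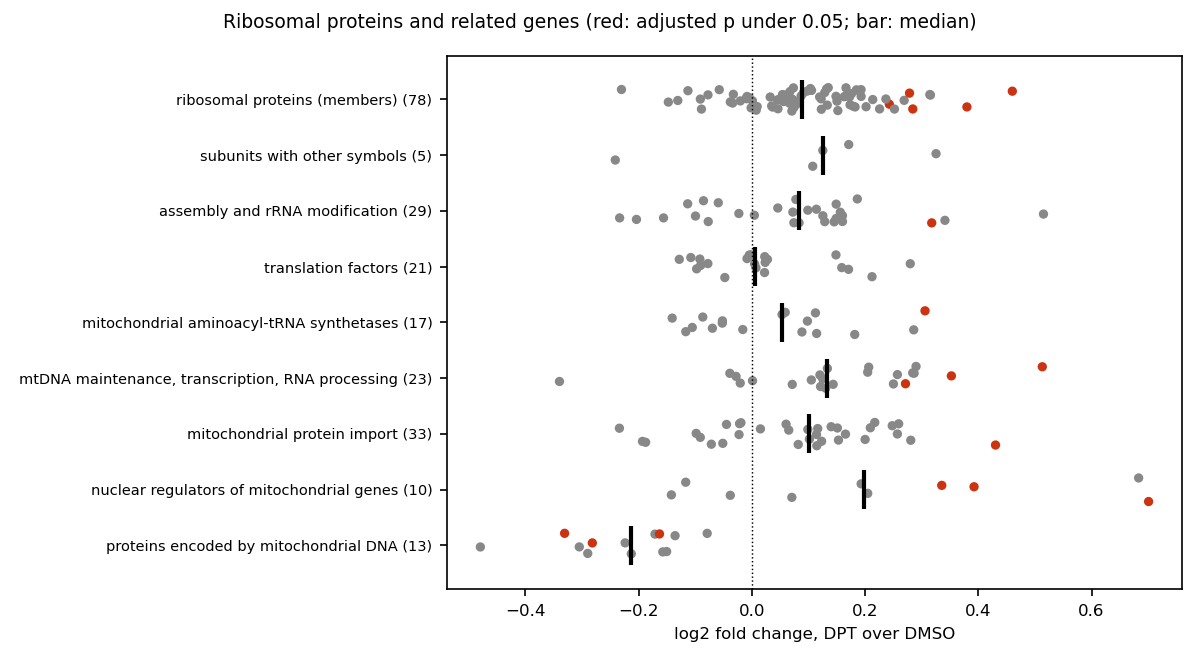
Log2 fold change of DPT over DMSO for the 78 tested members and the related lists, with the number of tested genes in parentheses, 1 point per gene, red for an adjusted p under 0.05 and a black bar at the median. The members' median lies at 0.09 and that of the messenger RNAs of the 13 proteins encoded by mitochondrial DNA at -0.21.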

How the data were processed

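The deposited table held an expected count and an FPKM value per gene and library, per the file headers. Fastp 0.18.0, HISAT2, StringTie 1.3.1, RSEM, DESeq2 and the build hg38 are named in the submitters' processing notes; no source used here gives their roles or a strand setting. The authors' estimated counts were not whole for 12.9% of values and were rounded, since estimated counting divides reads between similar genes. FPKM was used as deposited, for levels.

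Counts were tested with edgeR 4.0.16 (filterByExpr, minimum count 10 and minimum total 15, TMM, quasi-likelihood) in R 4.3.3, with Benjamini-Hochberg adjustment over 12648 genes and a threshold of 0.05. The SE is the log2 fold change over the root of F, and CPM are counts over scaled library size. Alternatives were other scalings, no filter, DESeq2 1.42.0, limma 3.58.1 on log2(FPKM + 0.5) and log2(FPKM + 0.1), a replicate block, a term for the pair, 6 libraries, and leaving out each library. The test was checked on simulated data, in which no pair of libraries stood apart. No 2 libraries of a group agreed within sampling noise, so none was counted as a duplicate. The p-values set the difference between the groups against the spread between these libraries. Gene positions are from GENCODE 29 (GRCh38), where 81 of 83 identifiers were found.

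The members, the gene lists and the pair were chosen with earlier results of these data known. Named were the called members, the extremes of change and level, rows that failed the filter, stalk and special subunits, the 2 called genes with the smallest adjusted p of each related list and direction, and TFAM, NRF1, GABPA and MYC.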

Additional observations from a re-analysis of the deposited data

Results flagged for a closer look

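For 84 groups of 4 libraries, the gap of the highest or lowest library to the nearest of the others was set against the range of the group. In 6 groups this gap was above Dixon's 95% critical value for 4 samples; chance gives such a gap in about 1 in 20 groups. MRPS35 was at 112 CPM in DPT library 2, with the other 3 at 104 to 105 CPM. MRPL37 was at 142 CPM in DPT library 2, with the others at 107 to 110.1 CPM. MRPL4 was at 61.7 CPM in DMSO library 3, above 54.1 to 55.4 CPM in the others. MRPS12 was at 14.6 CPM in DPT library 3, below 15.97 to 16.2 CPM. PTCD3 was at 78.4 CPM in DMSO library 3, below 94.01 to 95.5 CPM, and MYC at 115 CPM in the same library, below 188 to 191 CPM. Of these 6 values, 5 came from DMSO library 3 or DPT library 2.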

How the results depend on the processing

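Numbers of members higher and lower in DPT, 5 and 0, were 3 and 0 with no low-count filter, 17 and 1 with the term for the pair, 15 and 1 in the 6 libraries without it, and 1 to 5 and 0 without 1 library, fewest without DMSO library 1 or 4. Among all genes, 718 higher and 669 lower became 2140 and 2156 with the term, 2158 and 2169 in 6 libraries, 969 and 523 with library totals, 739 and 340 or 738 and 336 by limma on FPKM with pseudocounts of 0.5 and 0.1, and 332 to 1183 and 311 to 1108 without 1 library, most without DPT library 2. Related genes, 9 higher and 3 lower, became 14 and 1 with library totals, 14 and 7 by DESeq2, 25 and 13 with the term, 25 and 17 in 6 libraries, 2 to 13 and 0 to 6 without 1 library, and 0 lower by limma at either pseudocount. The members' median, 0.09, was 0.039 to 0.13 without 1 library, 0.13 with library totals (70 of 78 above 0) and 0.14 and 0.15 by limma at pseudocounts of 0.5 and 0.1 (71 of 78). Deviations of same-numbered libraries from their group means had correlations of -0.40 to 0.21, 2 of 4 above 0.1 and none best with its own number. These correlations follow the pair: 0.68 between DMSO library 3 and DPT library 2, and negative between either and the other libraries of the opposite group. They therefore cannot tell whether the numbers pair the libraries. With the replicate block 0 members, 171 and 174 genes, and 2 and 0 related genes were called. Some log2 fold changes that were not called changed sign: MRPL51 (0.032 with library totals, 0.0025 by limma at either pseudocount, -0.13 to 0.078 without 1 library), MRPS36 (0.033, then 0.010 and 0.0096, and -0.082 to 0.12), MRPS21 (-0.054 in 6 libraries), MRPS18A (-0.070 in 6 libraries, -0.057 to 0.093 without 1), and without 1 library MRPL37 (-0.063 to 0.15), MRPL11 (-0.022 to 0.11) and AURKAIP1 (-0.0041 to 0.20). The cause was not tested. What depth limits was not tested.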
